A study of Mus musculus with 2 samples.

Results

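The regions described here are 249 COUP-TFI peaks that lay far from any annotated gene, out of 754 peaks in the authors' list. A peak was a member when its centre fell outside all gene bodies and farther than 5 kb from every gene, coding or non-coding, placed on chromosomes 1 to 19 or X in the RefSeq gene table of GRCm38, the assembly also called mm10. The rule used position only. Of the other peaks, 417 had their centre inside a gene and 88 lay outside a gene but within 5 kb of one. The tissue was fixed neural retina from wild-type E14.5 mouse embryos, and no mutant, treatment or second stage enters the comparison. One library was immunoprecipitated with anti-COUP-TFI, and 1 input library was made without antibody. With 1 library of each kind there was no replicate check. A peak list measures no expression, so the labelled tissue could not be checked against marker genes.

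COUP-TFI, the product of Nr2f1, is an orphan nuclear receptor of the steroid and thyroid hormone receptor superfamily. It binds DNA as a dimer at repeats of a short receptor half-site and can repress or activate transcription. In the developing eye the COUP-TF proteins act in the patterning of the optic cup, in the choice between optic stalk and neural retina and in the formation of retinal cell types. Regulatory elements of developmental genes often lie far from the gene they act on, so the nearest gene of a distant region is a landmark and not a target. No genome sequence was used here, so no bases of the peaks are shown and no receptor motif was searched.

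The ChIP library held 7371400 tags, that is, mapped read positions, and the caller kept 754 of 1283 putative regions (58.8%). All 249 peaks far from genes passed that filter by construction. The authors' caller counted 8821 tags in all peaks and gave an approximate IP efficiency of 0.12%, so few tags lay in peaks. Its tag threshold for the false discovery rate was 10. The far peaks held 2931 tags in all, and all peaks of the list have the same width. Intervals on tags are 95% exact Poisson intervals and intervals on shares 95% exact binomial intervals. Both cover counting error only, and both treat tags or peaks as independent, which PCR copies and read pairs are not. The caller considered at most 1 tag per position, so copies at the same position do not add to the counts. Even tag numbers outnumbered odd ones among far peaks of 11 to 16 tags, 111 against 52 (68.1% even), and the other peaks in that range were 68.0% even.

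The peaks far from genes were as low as the rest of the list. Their tag counts ran from 10 to 20 with a median of 12, and the 505 other peaks also had a median of 12, in a range of 10 to 21. At the minimum of 10 tags stood 83 far peaks (33.3%, 27.5 to 39.6) and 34.7% of the others. At least 12 tags were found in 131 far peaks (52.6%, 46.2 to 58.9), beside 52.1% over all 754 peaks. At least 16 tags were found in 11 far peaks (4.42%, 2.23 to 7.77), beside 4.91% over all peaks. A caller score above its lowest value of 10 was given to 45 far peaks (18.1%, 13.5 to 23.4), beside 21.6% over all peaks. The authors' fold over input had a median of 5.92 in both classes. On these measures the intervals of the far peaks included the share over all peaks, and no test was made between the classes.

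**Figure D1:**
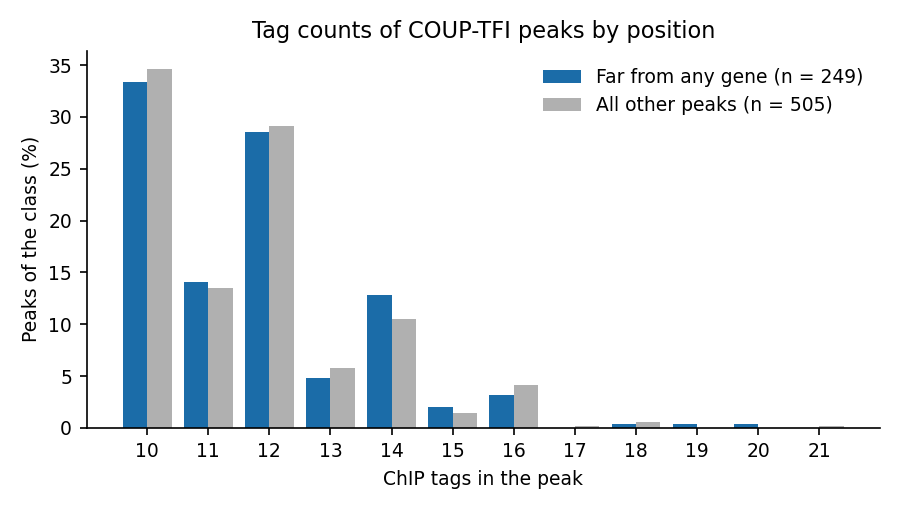
Share of peaks (%, vertical axis) at each ChIP tag count (horizontal axis) for the 249 peaks far from any gene and the 505 other peaks. Both classes have most of their peaks at 10 to 12 tags, with fewer peaks at 11 tags than at 12 and fewer at 13 than at 14.

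The highest of the far peaks lay on chromosome 5 at 25868460 to 25868710, 17894 bp from Actr3b, which encodes an actin-related protein of the Arp2/3 family. It held 20 tags (12.2 to 30.9) at 5.82 times the scaled input. The second, with 19 tags (11.4 to 29.7), lay near the start of the assembled chromosome 11 at 3101352 to 3101602. Its nearest gene was the pseudogene Pisd-ps1 and its nearest protein-coding gene Sfi1, a centrosome gene 30373 bp away. The peak with 18 tags (10.7 to 28.4) lay on chromosome 1 at 145960973 to 145961223, in a gene-free interval of 1017 kb, the widest that held a far peak. The nearest protein-coding gene there, Brinp3, which encodes a neural-specific protein, lay 0.535 Mb away. All 3 had input tags above the lowest value that the caller assigns.

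Another 8 far peaks held 16 tags each (9.15 to 26.0), and 7 of these had input at its lowest value. The one with higher input lay on chromosome 5 at 142295102 to 142295352, 79641 bp from Sdk1, which encodes a sidekick adhesion protein of retinal synaptic layers. At 22047124 to 22047374 on chromosome 1 a peak lay 84599 bp from Kcnq5, a potassium channel gene. On chromosome 15, at 50295777 to 50296027, lay the peak farthest from any gene, 358855 bp from Trps1, which encodes a GATA-type zinc finger repressor. The peaks on chromosome 14 at 37706207 to 37706457 and on chromosome 6 at 14333875 to 14334125 had Ghitm and Ppp1r3a as their nearest protein-coding genes, at 571010 and 379822 bp. The peaks on chromosome 18, at 29345779 to 29346029 and at 49101355 to 49101605, lay 919711 bp from Pik3c3 and 594665 bp from Dtwd2. The last of the 8, named here after its values were seen, lay on chromosome 1 at 14395028 to 14395278, 84118 bp from Eya1, a member of the eyes absent family of transcriptional coactivators and phosphatases. A peak at the minimum of 10 tags had an interval of 4.80 to 18.4, which overlapped that of the highest peak, so the order of the far peaks by tags was not resolved at this depth.

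Input reads were too few to be read at most of these positions. For 232 of the 249 far peaks the caller gave input its lower bound of 1.9 scaled tags, and there the fold over input is a function of the ChIP tags only. The remaining 17 (6.83%, 4.03 to 10.7) had higher input, beside 5.44% over all peaks, 3.84% (2.21 to 6.16) of peaks inside genes and 9.09% (4.01 to 17.1) of peaks within 5 kb outside a gene. Scaled input took 2 values above the lowest, 2.6 tags in 9 far peaks and 3.4 tags in 8. Recomputed from tags and folds, these were 3 and 4 times a step of 0.86. The step was defined by dividing the lower of these levels by 3, so its multiple of 3 was fixed in advance. Only the ratio of 4 to 3 between the levels comes from the data. The lowest value, 1.9, came to 2.16 steps.

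The 17 peaks with higher input held 11 to 20 tags with a median of 14, whereas the 232 others held 10 to 16 with a median of 11. The caller asked for 4-fold over input, so a peak with higher input needed more tags to be listed. That difference is therefore fixed in part by the filter. At 62240 bp from the Iroquois homeobox gene Irx5, on chromosome 8 (92295431 to 92295681), one of the 17 held 14 tags beside 3.4 scaled input tags. At 249703 bp from Mki67, which encodes the proliferation marker Ki-67, on chromosome 7 (135966028 to 135966278), another held 14 tags beside 2.6. Near Frat2, a positive regulator of Wnt signalling 5886 bp away, the peak on chromosome 19 (41839961 to 41840211) held 14 tags beside 3.4. The peak near Optn, which encodes the autophagy receptor optineurin, lay on chromosome 2 at 5080411 to 5080661 and was listed with 14 tags, while its scaled tags give 12. Such a mismatch occurred in 7 of the 249 far peaks (2.81%), beside 2.79% over all peaks. Further nearest protein-coding genes among the 17 were 9530068E07Rik with 15 tags, 4930519L02Rik with 14, Adgra3 and Tm4sf1 with 12 each and the potassium channel gene Kcnd3 with 11.

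**Figure D2:**
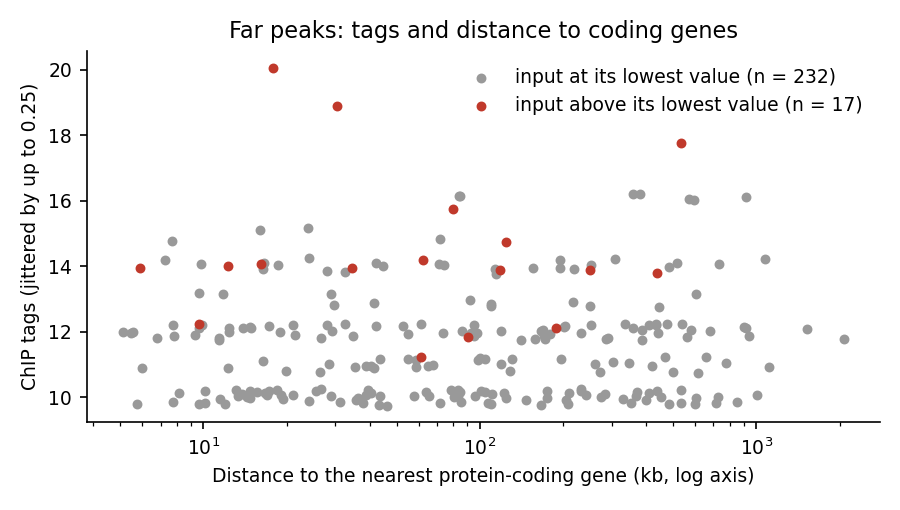
ChIP tags of each of the 249 far peaks (vertical axis, jittered by up to 0.25) against the distance to the nearest protein-coding gene (kb, log axis), coloured by scaled input. The 17 peaks with input above its lowest value include the 3 highest, at 18 to 20 tags, and peaks of 10 tags occur both near protein-coding genes and far from them.

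Most far peaks had a local ChIP density at the lowest value that the caller gives. The caller compares a peak with the 10 kb around it, and the local density, expressed as tags per peak width, has a lower bound of 0.925. The caller expected 0.809 tags per peak, so the bound lies above that value and densities below the bound cannot be read. At this bound stood 186 of the 249 far peaks (74.7%, 68.8 to 80.0), beside 63.1% over all peaks. The share was 57.8% (52.9 to 62.6) in peaks inside genes and 55.7% (44.7 to 66.3) in peaks within 5 kb outside a gene. Neither interval overlapped that of the far peaks, but these intervals treat peaks as independent and do not stand in for replicates. The authors' fold over the local region had a median of 11.9 in the far peaks (11.7 to 12.9 for the median) and of 11.1 in all others (10.8 to 11.8). For peaks at the bound this fold is a function of the ChIP tags only, so the medians are not independent of the shares at the bound. Within the far peaks the share at the bound was 76.0% (66.6 to 83.8) at 5 to 20 kb from a gene, 72.3% (63.3 to 80.1) at 20 to 100 kb and 80.8% (60.6 to 93.4) beyond 100 kb. These intervals overlapped, so no trend with distance was resolved. With the 17 far peaks of higher input left out, the share at the bound was 76.3% (70.3 to 81.6). The classes were not compared by a test, since peaks of 1 library are not replicates.

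**Figure D3:**
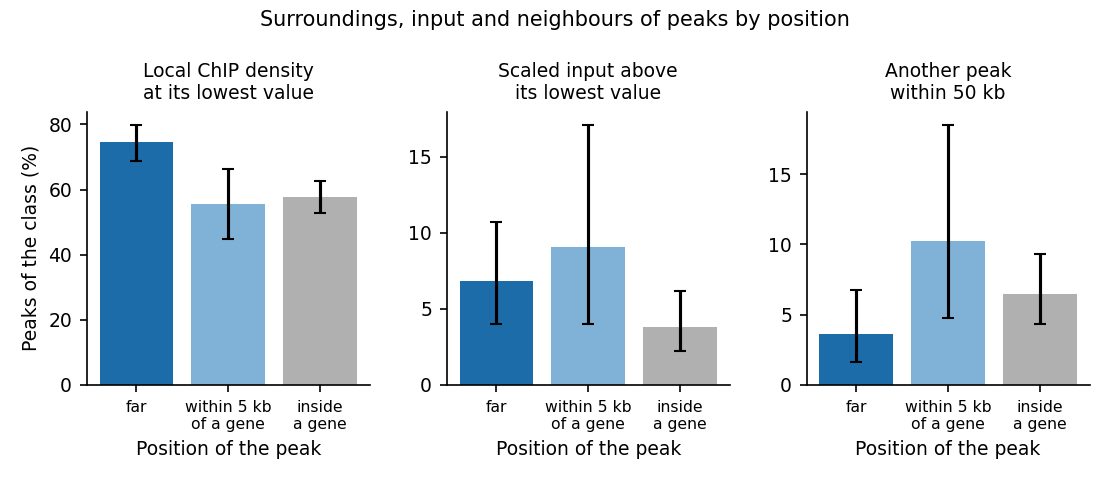
Share of peaks (%) with local ChIP density at its lowest value, with scaled input above its lowest value and with another peak within 50 kb, for peaks far from genes, within 5 kb of a gene and inside a gene. Error bars are 95% exact binomial intervals and cover counting error only. The far peaks have the highest share in the first panel, 74.7%.

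The 2 far peaks with the densest surroundings lay near each other on chromosome 4, in a region of zinc finger genes. The peak at 147397910 to 147398160, 6008 bp from Zfp978, had 11 tags and only 5.03 times its local density. The peak at 147430730 to 147430980, with 14 tags and 3.4 scaled input tags, stood 6.47-fold above its surroundings and lay 12259 bp from Zfp982. Their local densities were 2.19 and 2.16 tags per peak width, the highest of the far peaks. The next, 1.36, belonged to 1 of the peaks near Rxrg described below.

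Another peak of the list lay within 50 kb of 9 of the 249 far peaks (3.61%, 1.67 to 6.75), beside 5.97% over all peaks and 6.47% (4.31 to 9.28) of peaks inside genes. It was 10.2% (4.78 to 18.5) of peaks within 5 kb outside a gene. The share over all peaks, which include the far peaks, lay within the interval of the far peaks. That of the 505 other peaks, 7.13% (5.04 to 9.73), lay just above it, and these intervals overlapped. Within 100 kb the shares were 6.02% (3.41 to 9.74) of far peaks and 11.5% (8.84 to 14.6) of the others. A difference between the classes was not tested. All 9 far peaks with another peak within 50 kb lay within 20 kb of a gene, as did 104 of all 249 far peaks. These 9 include both members of the 2 pairs named next and the 2 peaks on chromosome 4 named above. They are thus not 9 separate places. Within 10 kb there were 2 pairs of far peaks. The closer pair, 2461 bp apart on chromosome 1, lay upstream of Rxrg, which encodes a retinoid X receptor of developing cones, with 10 tags at 167583461 to 167583711 and 11 tags at 167585922 to 167586172. The other pair, 4173 bp apart on chromosome 7, lay upstream of Eed, which encodes a subunit of the Polycomb repressive complex PRC2. Its peaks, at 89986322 to 89986572 and 89990495 to 89990745, held 12 tags each, and the one farther from the gene had 2.6 scaled input tags. The members of a pair may share DNA fragments or sequence and are not independent sites.

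Although chosen for their distance from genes, the far peaks lay nearer to genes than the gene-distant sequence as a whole. Their median distance to the nearest gene was 26.7 kb (21.5 to 31.5), whereas the median over the 1110 Mb of sequence that meets the same rule was 33.7 kb. Beyond 50 kb lay 69 far peaks (27.7%, 22.2 to 33.7) and 38.4% of the sequence. Beyond 100 kb lay 26 far peaks (10.4%, 6.94 to 14.9) and 20.2% of the sequence. Gene-free intervals wider than 500 kb held 14 far peaks (5.62%, 3.11 to 9.25) and 13.9% of the sequence. On the autosomes alone the median was 26.6 kb for 246 far peaks beside 33.6 kb for the sequence, and 10.6% of peaks lay beyond 100 kb beside 20.4% of the sequence. Distance was also the measure of the rule, so these values are a description with no test. The sequence was counted from the first to the last gene of each chromosome and stretches without assembled bases were not removed.

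**Figure D4:**
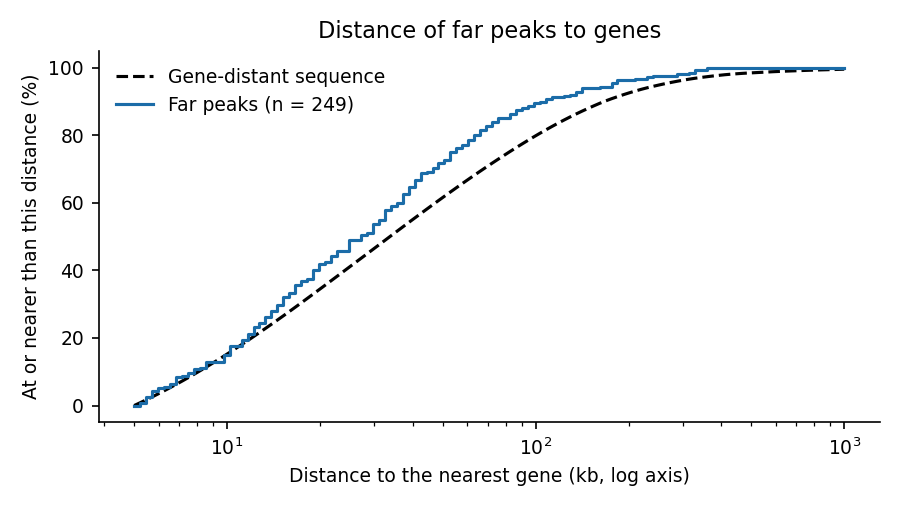
Share of far peaks (solid line, n = 249) and of all sequence farther than 5 kb from genes (dashed line) that lies at or nearer than a given distance to the nearest gene (kb, log axis). The peaks reach 50% at 26.7 kb and the sequence at 33.7 kb.

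The gene table itself is mixed, with 21627 protein-coding genes among the 49550 used. The nearest annotated gene was a protein-coding gene for 74 far peaks, a long non-coding RNA gene for 74, a pseudogene for 78, of which 4 are transcribed, a small nucleolar RNA gene for 19 and a small nuclear RNA gene for 4. The nearest protein-coding gene lay at a median of 85.6 kb (65.0 to 109.8), and 114 far peaks (45.8%) were more than 100 kb from one. Where RefSeq promoters gave the strand of that gene, for 196 of the 249 peaks, 85 lay upstream (43.4%, 36.3 to 50.6) and 111 downstream. The 53 peaks without a strand included most of the far peaks on chromosomes 15 and 18, so those chromosomes are poorly covered by this share. Median tags were 12 beside protein-coding genes, long non-coding RNA genes and pseudogenes and 11 beside small RNA genes.

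The 5 peaks most distant from any gene held 10 to 18 tags. After the peaks near Trps1 and Brinp3 came one of 12 tags on chromosome 2 at 101085293 to 101085543, 327843 bp from the non-coding gene Gm39886. It was followed by one of 10 tags on chromosome 14 at 85803631 to 85803881, with Diaph3, a formin gene, as its nearest protein-coding gene at 851601 bp. The fifth, also of 10 tags, lay on chromosome 1 at 111459796 to 111460046, and Dsel was its nearest protein-coding gene at 398780 bp. At the other end, the members just inside the limit lay 5098, 5107 and 5342 bp from Gm23308, Rsrc1 and Gm33701, with 14, 12 and 12 tags. The peaks just outside it lay 4984, 4852 and 4777 bp from Gm12845, Gm7965 and Gm53056, with 11 tags each.

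Few far peaks had a listed retinal gene as their nearest protein-coding gene. The 10 lists cover retinal cell types, signalling pathways, nuclear receptors, adhesion and other tissues. Of their 205 genes, 12 were nearest to 13 far peaks (5.22%, 2.81 to 8.76), beside 5.7% over all peaks. The share was thus close to that of the whole list, which includes the far peaks. No share over the genome was computed, and the lists were written with earlier results of these data known. These 13 peaks held 10 to 14 tags.

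Nuclear receptors and their partners, a list of 23 genes, had 2 far peaks (0.803%), beside 6 of all 754 (0.796%). The one nearest to Nr2f1 itself (chromosome 13, 78188971 to 78198873) lay 615720 bp upstream at 78814468 to 78814718, with 11 tags (95% exact Poisson interval 5.49 to 19.7). The other lay 438024 bp downstream of Bcl11a, which encodes a zinc finger protein also known as COUP-TF interacting protein 1. This peak, on chromosome 11 at 24611457 to 24611707, held 14 tags (7.65 to 23.5) with 3.4 scaled input tags, and its fold over input, 4.07, equals the lowest of all peaks. The retinoid X receptor gene Rxrg was counted in the list of photoreceptors, bipolar cells and Mueller glia. That list of 18 genes had 3 far peaks (1.20%), beside 5 of all 754 (0.663%), the third being one of 11 tags on chromosome 11 at 112984995 to 112985245, 197363 bp from Sox9, a transcription factor gene of retinal progenitors and Mueller glia.

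On the list of retinal axes and optic stalk (16 genes), Foxd1, the forkhead gene of the temporal retina, had a far peak of 10 tags (4.80 to 18.4). It lay 11499 bp upstream of the gene on chromosome 13 at 98342621 to 98342871, with input at its lowest value.

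Signalling genes of the Wnt, Hedgehog, BMP and FGF pathways (26 genes) had 2 far peaks (0.803%), beside 6 of all 754 (0.796%). The peak of 14 tags on chromosome 19 at 55957732 to 55957982 lay 24198 bp downstream of Tcf7l2, which encodes a DNA-binding effector of Wnt signalling. The peak of 12 tags on chromosome 8 at 23542609 to 23542859 lay 93102 bp from Sfrp1, which encodes a secreted Wnt antagonist. The ganglion cell list (17 genes) had 1 (0.402%), beside 3 of all 754 (0.398%), and it was a peak of 12 tags on chromosome 13 at 115864436 to 115864686. It lay 433709 bp downstream of Isl1, a LIM homeobox gene needed for ganglion cell differentiation.

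Axon guidance and adhesion (40 genes) had 3 far peaks (1.20%), beside 11 of all 754 (1.46%). Their nearest protein-coding genes were Cdh12, which encodes a cadherin, and Pcdh10 and Pcdh9, which encode protocadherins. The peak 217040 bp from Cdh12, on chromosome 15 at 21815336 to 21815586, held 13 tags. The peak 466532 bp from Pcdh10, on chromosome 3 at 45900986 to 45901236, held 11. The peak 729697 bp from Pcdh9, on chromosome 14 at 94622406 to 94622656, held 10. No far peak had its nearest protein-coding gene on the lists of eye field and progenitor genes (16 genes), amacrine and horizontal cells (12), Notch signalling (18) or lens, pigment epithelium, vessels and blood (19). Over all 754 peaks these lists had 1, 2, 4 and 1, so a shortage among the far peaks was not detectable.

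The far peaks were spread over all 20 chromosomes examined, with few on X. The X chromosome holds 99.8 Mb of gene-distant sequence, for which its share of the total would give 22.4 far peaks, and it carried 3 (0.619 to 8.77, ratio 0.134). Those 3 held 10, 11 and 12 tags, and the highest lay at 82430132 to 82430382, 384407 bp from Dmd, the dystrophin gene. X was also low in peaks of every kind, with 9 of 754, and its 3 far peaks were 33.3% of its own. On the autosomes, shares were taken over autosomal sequence alone. Chromosome 18 had 17 far peaks (9.90 to 27.2) where 9.57 would follow from its length of gene-distant sequence, a ratio of 1.78 (1.03 to 2.84). It was the only 1 of 19 autosomes whose interval excluded the value by length, it was picked out after its value was seen, and no adjustment was made for the 19 intervals. Of the 31 peaks on chromosome 18, 54.8% were far from genes, beside 249 of 754 in the whole list. The next highest shares were 46.3% on chromosome 3 and 41.7% on chromosome 13. Ratios of the other autosomes ran from 0.606 on chromosome 12 to 1.71 on chromosome 19.

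**Figure D5:**
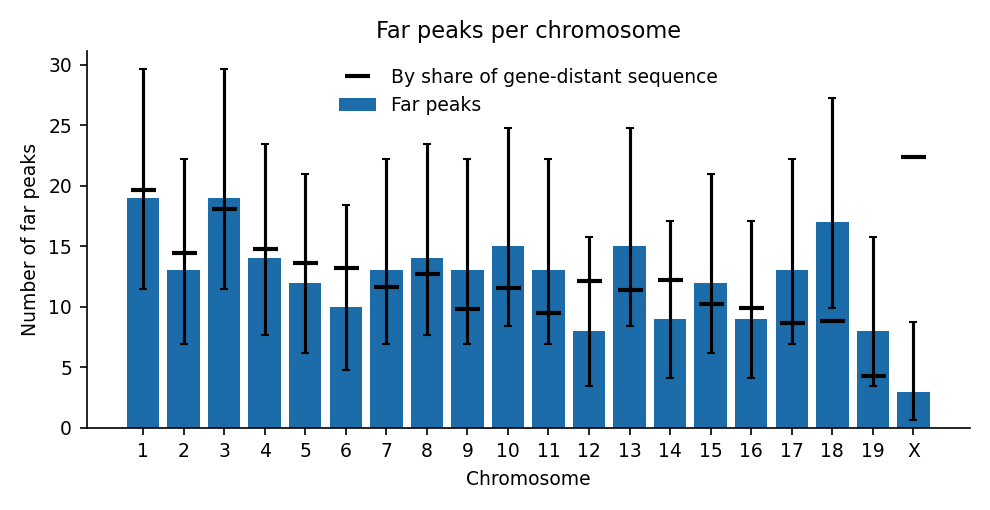
Number of far peaks per chromosome (bars, with 95% exact Poisson intervals) and the number that the share of gene-distant sequence over all 20 chromosomes gives (black marks). X carries 3 far peaks where the mark stands at 22.4, and chromosome 18 carries 17.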

How the data were processed

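One ChIP and 1 input library were made from E14.5 neural retina. Bowtie2 2.3.1, HOMER 4.2, FastQC and the build mm10 are named in the submitters' processing notes. Peak calling by the authors used findPeaks of HOMER in factor mode, with no pooling, per the file headers. Tag counts per peak were deposited as whole counts. Signal values were deposited as ChIP tags per 10000000 and as input tags scaled to the ChIP library with a lower bound. The deposited fold ratios are over input, over the local 10 kb and for clonality. The deposited p-values are Poisson and unadjusted. The deposited focus ratio is a fraction, and the deposited caller score has no definition in the headers.

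Distances were computed with Python 3.11.15 from peak centres to 49550 of the 49997 genes of the RefSeq table (GRCm38.p6), and checked on simulated positions. Local density was recomputed from scaled tags, and values within 0.001 of its lower bound were counted as at it. Peaks were named by rule: most tags, farthest, nearest the limit, higher input, pairs and listed genes. Members and lists were chosen with earlier results of these data known. No chance test was run, because peaks of 1 library are not replicates. One peak near a listed gene is not reported here.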

Additional observations from a re-analysis of the deposited data

How the results depend on the processing

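Of 63 values (7 results under 9 alternatives), 47 stayed within 1.5 times the count or within the 95% interval of the value reported. Neither the share at the lowest local density nor the comparison with gene-distant sequence was among the 7 results. The number of far peaks was 69 with a 50 kb limit, 131 with at least 12 tags and 45 with a caller score above its lowest value, each by construction. The share with higher input was 2.90% at 50 kb, 12.2% with at least 12 tags, 17.8% with the higher score and 0% once such peaks were left out. The share with another peak within 50 kb was 0% at 50 kb. The median distance was 20.3 kb with a 2 kb limit, 32.5 kb with 10 kb, 82.6 kb with 50 kb and 78.1 kb with protein-coding genes only, which follows from the changed limit or gene set. Peaks with a listed gene as their nearest protein-coding gene numbered 5 of 69 at 50 kb and 21 of 359 with protein-coding genes only. They numbered 6 of 131 with at least 12 tags and 1 of 45 with the higher score. The sets differ in size, so these counts alone show no change in share. The motif result and its alternatives were not run without genome sequence. No paired analysis was possible because there was 1 library of each kind. Depth limits the order of peaks by tags.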

Other observations

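Of the far peaks, 5 lay more than 1000 kb from any protein-coding gene, and they are named here after their values were seen. The most isolated, of 12 tags on chromosome 1 at 102561151 to 102561401, lay 2.07 Mb from Cntnap5b, which encodes a contactin-associated protein. A peak of 14 tags on chromosome 2 at 8781066 to 8781316 lay 1.08 Mb from Gata3, a zinc finger transcription factor gene. The others had Got2, Grik2 and Pcdh17 as their nearest protein-coding genes, at 1.53, 1.11 and 1.01 Mb, with 12, 11 and 10 tags. The 10 tags listed for the Pcdh17 peak stand beside 9 from its scaled tags.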
